A study of Mus musculus with 16 samples.

Results

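The comparison described here is between 2 subsets of activated regulatory T cells (Treg): double-positive cells, sorted as positive for both CD103 and ICOS, and CD103 single-positive cells, sorted as positive for CD103 and negative for ICOS. It was chosen by the labels, as the 2 arrays of each activated subset, which gives 4 of the 16 arrays of the series, and it was read across 19938 genes. All cells came from pooled lymph nodes of female C57BL/6 mice aged 8 to 12 weeks, and no group carried a transgene or a gene deletion by its label. For activation, 200000 sorted Treg per well were kept for 3 days with 1000000 naive CD4 cells of the Ly5.1 congenic background, 2000000 irradiated splenocytes from Rag2-/- mice and soluble anti-CD3 antibody at 0.5 ug/ml. This is a suppression assay, in which Treg restrain the division of naive cells, so each subset shared its well with other cells until it was recovered as CD4-positive, CD25-positive cells negative for Ly5.1. Fresh double-positive and fresh CD103 single-positive cells, measured straight after the sort on 4 other arrays, give the same comparison before activation. The replicates are labelled biological, and how many mice each pool held is not given in the sources used here.

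CD103 is the alpha chain, encoded by Itgae, of an integrin that binds E-cadherin on epithelial cells, and it marks T cells that reside in or have come from epithelial tissues. ICOS is a costimulatory receptor of the CD28 family that T cells raise after contact with antigen, and among Treg it marks effector cells, which express tissue homing receptors and suppressive molecules such as IL-10. Effector Treg can take on parts of the helper cell programmes they restrain, and T helper 17 and T helper 2 cells are defined by IL-17A with IL-17F and by IL-4, IL-5 and IL-13.

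The 2 largest differences after activation among named genes were those of Il17a and Il13, both helper cytokine genes. Il17a was 40.9-fold higher in double-positive than in CD103 single-positive cells, and Il13 was 26.0-fold higher, while neither differed measurably between the same subsets before activation. Il17f, Csf2 and Cxcl3 were also higher by 6.82-fold or more, together with Cxcr6 and Klrg1, a homing receptor and an effector Treg surface receptor that were already higher in fresh double-positive cells. Lower in double-positive cells were Tgm2, Il24, Plk2, Tnip3 and Bach2, by 5.49-fold to 8.82-fold. A gene passed the test at a Benjamini-Hochberg adjusted p below 0.05 in limma over all 19938 genes. By that threshold 106 genes were higher (0.532% of genes) and 60 were lower (0.301%), which is 166 in all, or 0.833%. The fit used 15 arrays, with 1 estimate of the spread per gene shared by the 8 groups of the series. Its p-values rest on how far the 2 biological replicates of each group lay apart. Activated ICOS single-positive replicate 2, an array of a group outside the comparison, was left out because its log2 Foxp3 level was 8.53, while the 4 arrays compared had 11.97 to 12.45. With that array kept in, 28 genes passed, and neither Il17a (adjusted p = 0.0756) nor Il13 (0.148) was among them.

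Several cytokine genes were higher in double-positive cells after activation with no measurable difference in fresh cells, and 4 of them were picked for display. The stretches of 250 bases before their annotated starts are shown. They were read from RefSeq on GRCm38.p6, run 5′ to 3′ on the strand of the gene, and lie at chr1:20730655-20730904 on the plus strand for Il17a, chr1:20784271-20784520 on the minus strand for Il17f, chr11:53634703-53634952 on the minus strand for Il13 and chr11:54249900-54250149 on the minus strand for Csf2. Capitals mark matches on either strand to 3 motifs: TGANTCA, bound by AP-1, GGAAA, the core bound by NFAT, and AGGTCA, the half-site bound by ROR family receptors. No marked matches overlapped.
Il17a: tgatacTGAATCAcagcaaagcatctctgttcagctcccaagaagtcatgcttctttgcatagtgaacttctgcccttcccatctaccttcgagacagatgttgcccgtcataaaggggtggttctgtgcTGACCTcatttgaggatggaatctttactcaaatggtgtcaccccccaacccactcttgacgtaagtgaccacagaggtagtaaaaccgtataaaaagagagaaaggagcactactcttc
Il17f: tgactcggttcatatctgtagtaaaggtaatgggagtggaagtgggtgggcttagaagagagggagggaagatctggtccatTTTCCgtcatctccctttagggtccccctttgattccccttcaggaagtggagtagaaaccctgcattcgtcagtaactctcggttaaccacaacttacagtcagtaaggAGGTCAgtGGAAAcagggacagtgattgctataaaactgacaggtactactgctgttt
Il13: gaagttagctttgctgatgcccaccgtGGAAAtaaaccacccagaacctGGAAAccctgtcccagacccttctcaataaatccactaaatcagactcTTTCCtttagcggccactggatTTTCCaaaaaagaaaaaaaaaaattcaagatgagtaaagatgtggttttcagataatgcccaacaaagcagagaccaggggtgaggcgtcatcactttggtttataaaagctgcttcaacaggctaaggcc
Csf2: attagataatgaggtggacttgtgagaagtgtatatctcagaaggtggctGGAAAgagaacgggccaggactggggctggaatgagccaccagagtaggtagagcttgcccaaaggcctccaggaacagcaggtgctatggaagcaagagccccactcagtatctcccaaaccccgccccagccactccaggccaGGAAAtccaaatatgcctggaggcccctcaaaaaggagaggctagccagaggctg
The Il17a stretch held 1 AP-1 match and 1 ROR half-site match, and the Il17f stretch held 1 ROR half-site match and 2 NFAT core matches. The Il13 stretch held 4 NFAT core matches and the Csf2 stretch 2, with no AP-1 match and no ROR half-site match in either. Cxcl3 had the same pattern of levels, and its stretch, read but not printed, held 2 NFAT core matches and no match to the other motifs marked. Over all 32851 promoters of the same length, an AP-1 match was found in 6.75%, an NFAT core match in 55.6% and a ROR half-site match in 14%. These are matches of letters in a short window and say nothing of binding.

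The genes behind the sort were read first, as a check of the labels. Icos had log2 levels of 12.12 and 12.07 in CD103 single-positive cells and of 12.91 and 12.87 in double-positive cells. The groups did not overlap, where 15.8% of all genes were higher without overlap. The difference was 0.79 ± 0.12 (SE of the limma fit, n = 2 against 2, adjusted p = 0.019). In fresh cells the Icos difference was 1.89, and the activated difference was smaller by a test of the 2 differences against each other (-1.09, adjusted p = 0.0158 in limma). The CD103 single-positive cells, negative for ICOS at the sort, carried Icos well above the array median of 6.35 in both states, at 11.21 and 11.47 when fresh. Itgae, which both subsets were sorted to carry, had levels of 9.94 and 9.87 in CD103 single-positive and of 11.18 and 11.08 in double-positive cells. This is a difference of 1.23 ± 0.23 (adjusted p = 0.046 in limma), so the subsets were not matched for Itgae after activation; in fresh cells the difference was 0.52 (adjusted p = 0.431). The Itgae call was lost when any 1 of the 4 arrays was left out, and so was the Icos call. Foxp3, the lineage factor of Treg, was 12.19 and 11.97 in CD103 single-positive and 12.45 and 12.29 in double-positive cells, a difference of 0.29 ± 0.22 (adjusted p = 0.696 in limma). Il2ra, which encodes CD25 and was used to recover the cells, differed by 0.19 ± 0.13 (adjusted p = 0.628 in limma).

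Among cytokine genes, 4 of 30 measured members of the list rose, 1 fell, and 25 did not pass. In all, 22 of the 30 differences were positive, with a median of 0.36 on the log2 scale, while 46.6% of all genes had a positive difference and the median over all genes was -0.01. The cytokine median was 0.20 without double-positive replicate 1, 0.63 without double-positive replicate 2 and 0.59 without CD103 single-positive replicate 1. Il17a, the cytokine that defines T helper 17 cells and draws neutrophils to epithelia, had levels of 5.99 and 6.49 in CD103 single-positive cells, below or close to the array median, and of 11.62 and 11.56 in double-positive cells. The difference was 5.35 ± 0.25 (SE, adjusted p = 1.36e-05 in limma). Il17f, its neighbour and closest relative, was at 6.88 and 7.81 in CD103 single-positive and at 10.87 and 10.23 in double-positive cells, a difference of 3.20 ± 0.30 (adjusted p = 0.000742). The arrays of the subsets stood far apart for both genes. In bulk samples such as these, more cells carrying a transcript and more RNA per cell cannot be told apart.

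Il13, a type 2 cytokine that acts on mucus-secreting epithelium and smooth muscle, had levels of 8.01 and 8.17 in CD103 single-positive and of 13.16 and 12.43 in double-positive cells. The difference was 4.70 ± 0.40 (adjusted p = 0.000386 in limma). The other type 2 cytokine genes did not pass. Il5, which supports eosinophils, was at 9.80 and 9.37 in CD103 single-positive and at 11.41 and 9.29 in double-positive cells (difference 0.76, adjusted p = 0.782 in limma), and its groups overlapped. Il4 differed by 0.93 (adjusted p = 0.295 in limma), and Il9, at 10.03 and 6.29 against 10.97 and 6.64, followed the replicate number more than the subset. These 3 genes were chosen after their values were seen, as the partners of Il13.

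Csf2, which encodes the myeloid growth factor GM-CSF, was at 5.56 and 5.37 in CD103 single-positive and at 8.65 and 7.83 in double-positive cells, a difference of 2.77 ± 0.23 (adjusted p = 0.000373 in limma). Cxcl3, a chemokine for neutrophils, was at 5.61 and 5.59 against 9.92 and 8.65 (3.68 ± 0.30, adjusted p = 0.000373). It was the only one of 14 chemokine ligand genes to pass, although 13 of the 14 differences were positive with a median of 0.81. That median was 0.40 without double-positive replicate 1 and 0.55 without CD103 single-positive replicate 2. The probe set named Iltifb was at 5.26 and 5.14 against 9.18 and 8.88 (3.83 ± 0.19, adjusted p = 1.36e-05). Iltifb is a near-identical copy of the IL-22 gene, and which of the copies the probes measured is uncertain. Il24, a cytokine of the IL-10 family, went the other way, with 10.93 and 9.93 in CD103 single-positive and 7.94 and 6.77 in double-positive cells (-3.07 ± 0.60, adjusted p = 0.0496). Its call was lost without any 1 of the 4 arrays.

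**Figure D1:**
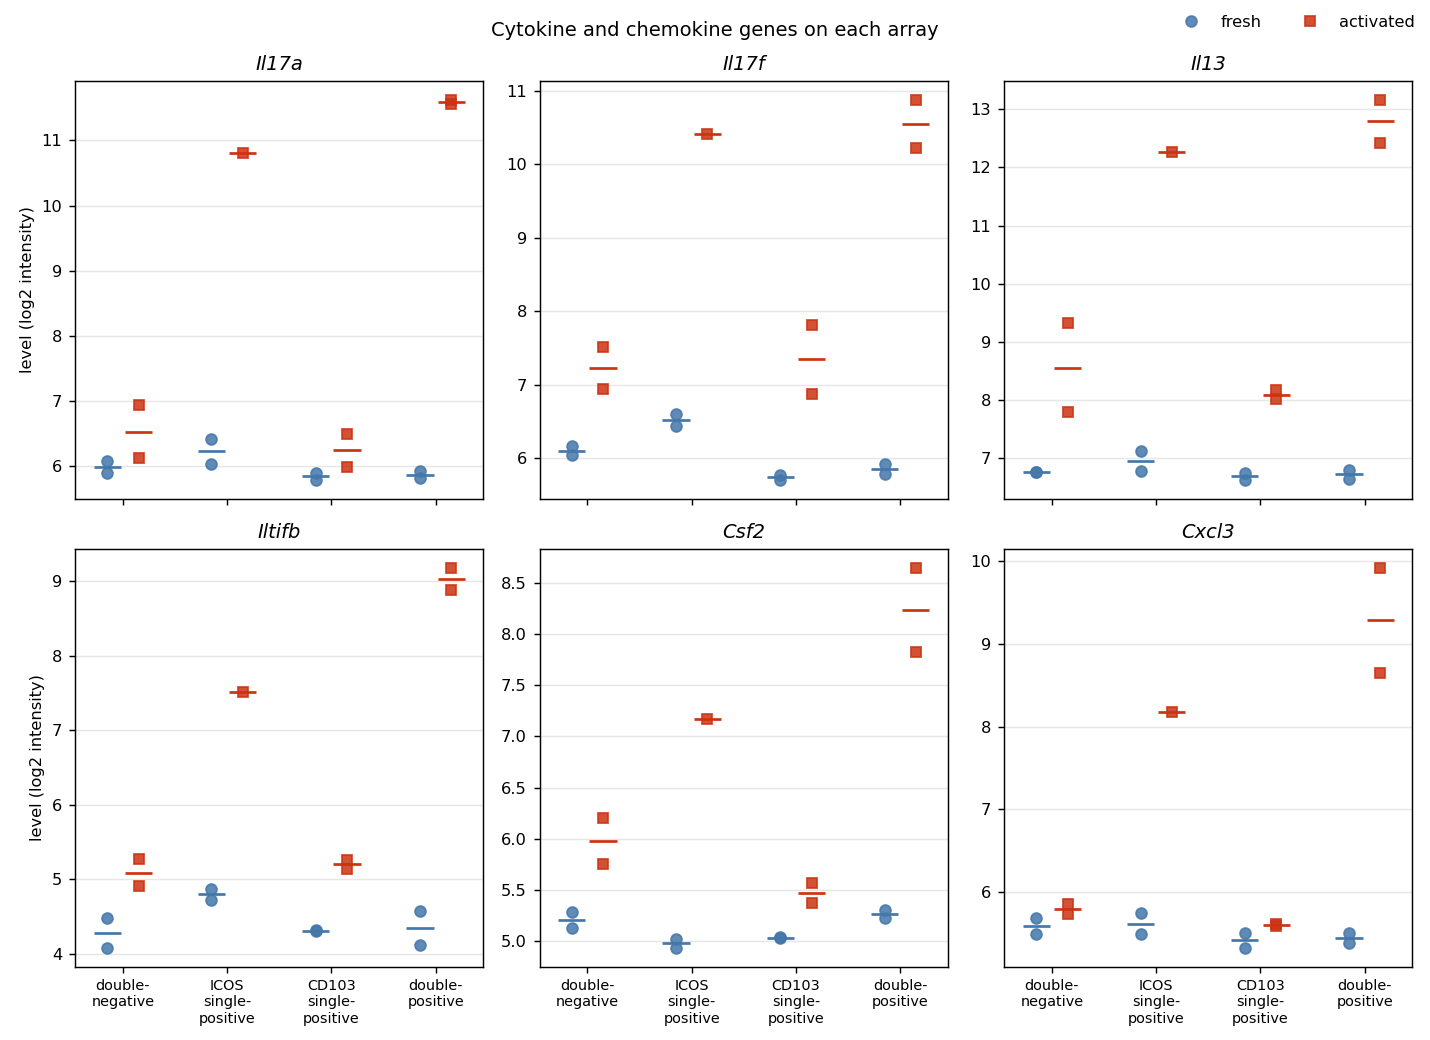
Level (log2 intensity, vertical axis, scaled per gene) of 6 genes in the 4 sorted subsets (horizontal axis), with fresh arrays as blue circles and activated arrays as red squares, 1 point per array and a bar at each mean. Il17a stood at 11.62 and 11.56 in activated double-positive cells and at 6.49 or below in activated CD103 single-positive cells; the activated ICOS single-positive group has 1 array because the other was left out.

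Levels in the other activated subsets place these genes, as values and without a test. On the single ICOS single-positive array that was kept, Il17a was at 10.80, Il17f at 10.41 and Il13 at 12.27, within 1 log2 unit of the double-positive arrays. On the double-negative arrays Il17a was at 6.12 and 6.93 and Il13 at 7.79 and 9.32. Csf2 was lower on the ICOS single-positive array, at 7.17, than on either double-positive array, and Iltifb was at 7.51. For all 15 of the largest higher genes this array was higher than all 4 arrays of the CD103 single-positive and double-negative groups. The 15 were picked for standing above the CD103 single-positive arrays in double-positive cells, which makes low levels on those arrays likely. How many of all genes show the same order was not counted, and the ICOS single-positive values rest on 1 array. On the other array of that group, left out for its low Foxp3 level, Il17a was at 6.42, Il17f at 7.47 and Il13 at 7.21. These 3 values lay below both double-positive arrays.

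Most other members of the type 17 and type 2 lists did not pass. Of 11 measured type 17 genes 2 rose, Il17a and Il17f. Their regulator Rora was at 9.57 and 9.60 against 10.35 and 10.12 (0.65, adjusted p = 0.0932 in limma), and the receptor gene Il23r at 6.62 and 7.87 against 10.01 and 9.87 (2.70, adjusted p = 0.0801). The groups did not overlap for either, which also held for 15.8% of all genes in the higher direction. Of 16 type 2 genes 2 rose, Il13 and Il17rb. Il17rb, a subunit of the receptor for the alarm cytokine IL-25, rose by 2.07 ± 0.29 (adjusted p = 0.0106), with levels of 6.76 and 6.14 against 8.90 and 8.13. Gata3, the type 2 lineage factor, differed by -0.45 (adjusted p = 0.641). Rora, Il23r and Gata3 were chosen after their values were seen. Of 12 type 1 genes 1 rose, Il18r1, a subunit of the IL-18 receptor (0.90 ± 0.17, adjusted p = 0.046).

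Surface receptors and effector Treg genes formed the next group. Of 28 measured effector Treg genes 7 rose and 0 fell, and 21 of the differences were positive, with a median of 0.76. Over all genes 0.532% were higher by the threshold and 46.6% had a positive difference. Klrg1, an inhibitory lectin receptor that marks terminally differentiated effector Treg, was at 7.34 and 7.44 in CD103 single-positive and at 10.91 and 10.81 in double-positive cells (3.47 ± 0.18, adjusted p = 1.36e-05 in limma). Cxcr6, a receptor that holds T cells in barrier tissues, was at 6.83 and 7.56 against 10.90 and 10.57 (3.54 ± 0.40, adjusted p = 0.00315). S100a6 and S100a4, small calcium-binding proteins of effector and memory T cells, rose by 2.71 and 1.57, and Lgals3, a galactoside-binding lectin, by 2.41. Fgl2, a secreted suppressive molecule, was at 5.61 and 6.36 against 7.72 and 8.57 (2.17, adjusted p = 0.0367). Icos was the seventh, and because the subsets were sorted by ICOS its direction was largely set in advance. S100a4 and Fgl2 are named to complete the 7, after their values were seen.

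Other effector Treg genes did not pass after activation. Il10 was at 9.47 and 9.65 in CD103 single-positive and at 10.02 and 10.50 in double-positive cells (0.70 ± 0.60, adjusted p = 0.744 in limma). Gzmb, the cytolytic protease granzyme B, was at 11.84 and 12.54 against 12.39 and 12.70, with overlapping groups. In fresh cells the differences had been 4.15 for Il10 and 5.18 for Gzmb. Ccr2, a receptor for inflammatory chemokines, differed by 3.21 (5.93 and 7.30 against 9.70 and 9.95) but missed the threshold (adjusted p = 0.0691 in limma). Its groups did not overlap, as for 15.8% of all genes in the higher direction. Prdm1, which encodes the effector factor Blimp-1, differed by 1.30 (adjusted p = 0.416). Il10, Gzmb, Ccr2 and Prdm1 were chosen after their values were seen.

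Few homing and adhesion genes passed, and Cxcr6 and the sort gene Itgae were among them. Of 24 chemokine and lipid homing receptors 2 rose, Cxcr6 and Ccr9, and 20 differences were positive with a median of 0.45. Ccr9, the receptor for the small intestinal chemokine CCL25, was at 5.85 and 5.37 against 6.87 and 6.999 (1.32 ± 0.23, adjusted p = 0.0309 in limma), far below its levels of 10.84 to 11.09 in the fresh subsets. Of 21 integrin and adhesion genes 3 rose: Itgae, its partner chain Itgb7 (0.83 ± 0.13, adjusted p = 0.0221) and Itga2, a collagen-binding chain (1.25 ± 0.19, adjusted p = 0.017). The calls for Ccr9, Itgae and Itga2 were each lost when any 1 of the 4 arrays was left out. Among 20 costimulatory and TNF receptor family genes the sort gene Icos, Cd40lg and Tnfrsf1b rose, and 18 differences were positive with a median of 0.32. Of all genes 0.532% were higher by the threshold and 46.6% had a positive difference. Tnfrsf1b, the TNF receptor TNFR2 that supports Treg survival, rose by 0.94 ± 0.17, from 10.08 and 10.63 to 11.20 and 11.40. Of 16 coinhibitory receptor genes 2 rose, Klrg1 and Cd200r1, an inhibitory receptor for CD200 (1.69 ± 0.26, adjusted p = 0.017).

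The remaining largest higher genes belong to none of these programmes. Lum, a matrix proteoglycan, was at 4.19 and 4.57 against 8.38 and 7.96 (3.79 ± 0.23, adjusted p = 5.19e-05 in limma). Peg10, an imprinted gene derived from a retrotransposon, was at 6.45 and 6.74 against 10.32 and 10.07 (3.60 ± 0.29). Frmd5, a membrane scaffold protein, rose by 3.24, and Cpe, a peptide-processing carboxypeptidase, by 2.76. Zbtb16, which encodes PLZF, a transcription factor of innate-like T cells, rose by 2.57 ± 0.43, with double-positive levels of 9.74 and 8.00 that lay further apart than those of the other genes in this paragraph. In 29 of the 106 higher genes the CD103 single-positive mean lay below the array median, where array background can make a fold too small.

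**Figure D2:**
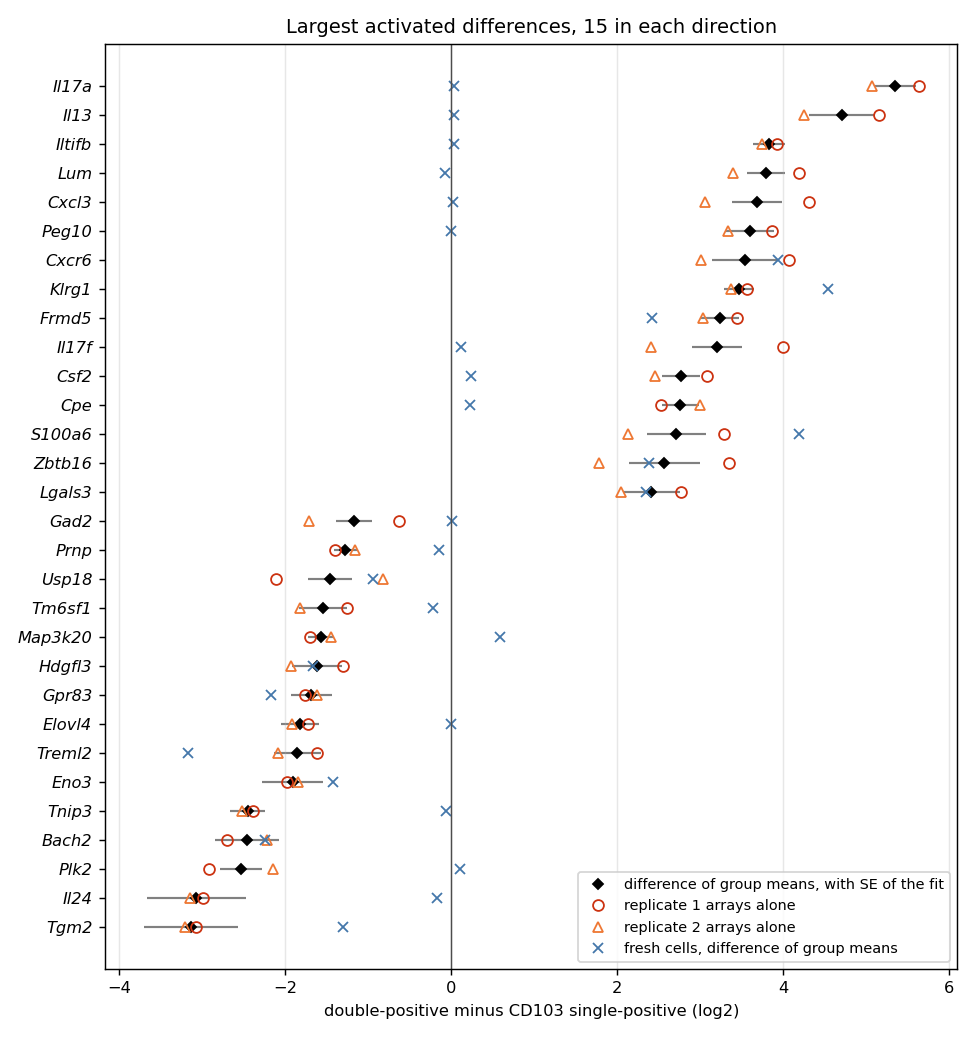
Double-positive minus CD103 single-positive difference (log2, horizontal axis) of the 15 largest higher and 15 largest lower genes after activation. Black diamonds are differences of group means with the SE of the fit, open red circles and orange triangles the replicate 1 and replicate 2 arrays alone, and blue crosses the fresh difference; in 9 of the 15 higher genes the fresh difference lay within 0.25 of 0.

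The 60 genes lower in double-positive cells had a median difference of -0.93, against 1.28 over the 106 higher genes. Which direction held more genes depended on the fit: without double-positive replicate 1, 70 were higher and 145 lower, and with a replicate block 310 were higher and 441 lower. Bach2, a repressor that restrains effector differentiation, was at 10.04 and 8.84 in CD103 single-positive and at 7.34 and 6.63 in double-positive cells (-2.46 ± 0.38, adjusted p = 0.0192 in limma). Bach2, Treml2 and Actn1 were the 3 that fell among 18 genes of naive and central T cells, and 1 rose, Txk; 11 differences were negative with a median of -0.30. Treml2, a receptor of resting lymphocytes, fell by 1.85, and Actn1, an actin cross-linker, by 1.09. Txk, a Tec family kinase downstream of the T cell receptor, rose by 1.28. Gpr83, a receptor enriched in Treg, fell from 10.93 and 10.47 to 9.17 and 8.85 (-1.69 ± 0.25, adjusted p = 0.0144). With Itgae, which rose, it was 1 of the 2 Treg core genes among 20 that passed.

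Tgm2, a transglutaminase, showed the largest fall, with 11.84 and 10.86 in CD103 single-positive and 8.76 and 7.65 in double-positive cells (-3.14 ± 0.57, adjusted p = 0.0374 in limma). Plk2, a stress-induced polo-like kinase, was at 9.25 and 8.66 against 6.33 and 6.51 (-2.54 ± 0.25, adjusted p = 0.00126). Tnip3, an inhibitor of NF-kB signalling, was at 8.85 and 8.83 against 6.46 and 6.31 (-2.46 ± 0.22, adjusted p = 0.000459). For these 3 genes the groups did not overlap, as for 22.7% of all genes in the lower direction, and the replicates lay closer for Tnip3 than for Tgm2. Map3k20, a stress kinase that senses stalled ribosomes, was at 10.10 and 10.001 against 8.40 and 8.56 (-1.57 ± 0.15, adjusted p = 0.00107). Prnp, the prion protein gene, fell by 1.28 and Elovl4, a fatty acid elongase, by 1.82. Eno3, Hdgfl3, Tm6sf1, Usp18 and Gad2 complete the 15, with falls of 1.17 to 1.91 and adjusted p-values of 0.0406 to 0.047 in limma. Serpinb9, an inhibitor of granzyme B, fell by 1.15 and was the 1 of 17 granule and cytolysis genes to pass.

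**Figure D3:**
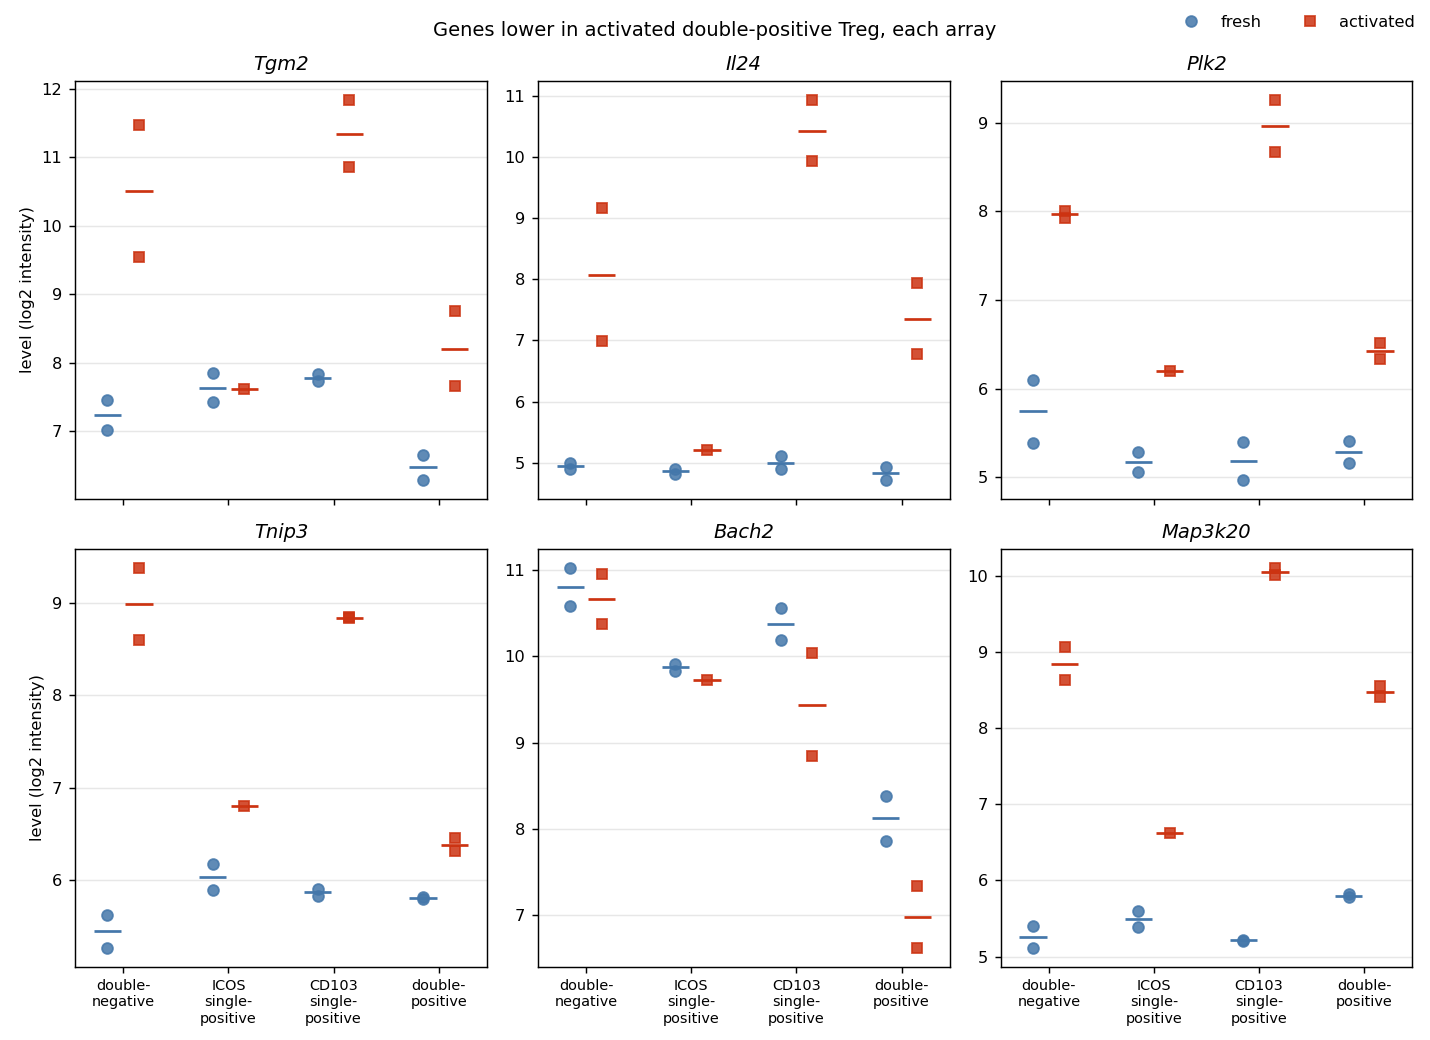
Level (log2 intensity, vertical axis, scaled per gene) of 6 genes that were lower in activated double-positive than in activated CD103 single-positive cells, in the 4 sorted subsets, with fresh arrays as blue circles, activated arrays as red squares and a bar at each mean. Tnip3 stood at 8.85 and 8.83 on the activated CD103 single-positive arrays and at 6.46 and 6.31 on the activated double-positive arrays, and between 5.80 and 5.91 on the fresh arrays of the same subsets.

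Among 20 interferon response genes 3 rose, 1 fell, and the median difference was 0.30. Gbp3, a guanylate-binding protein induced by interferon, was at 8.91 and 9.05 against 10.28 and 10.32 (1.32 ± 0.14, adjusted p = 0.00258 in limma). The antiviral genes Oas1a and Oas2 rose by 0.75 and 0.70, and Usp18, a negative regulator of the interferon receptor, fell by 1.46. Of the 8 measured Gbp genes, counted after the values were seen, 7 had a positive difference and 3 passed (Gbp3, Gbp5 and Gbp7, the last 2 at 1.16 and 1.05).

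Cell cycle genes did not pass after activation: 0 of 29 rose or fell by limma's threshold. All 29 differences were negative, with a median of -0.31, and the arrays of the subsets did not overlap for 20 of them, where 22.7% of all genes were lower without overlap. With the arrays quantile normalized again, 4 of the 29 were positive and the median was -0.22. Ccna2, which drives DNA replication, was at 11.51 and 11.52 in CD103 single-positive and at 11.51 and 11.40 in double-positive cells, and Mki67, a marker of dividing cells, at 11.57 and 11.61 against 11.51 and 11.50. Both were highly expressed in both subsets. The medians for glycolysis and sterol synthesis were -0.20 over 15 genes and -0.35 over 18, with 0 members positive and 0 passing in either. After quantile normalization 1 and 2 members were positive. Without double-positive replicate 2 the glycolysis median was 0.03, with 8 of 15 positive, and the sterol synthesis median was -0.17, so both values moved with that array. The replicate 1 arrays alone gave -0.09 and -0.08, and the replicate 2 arrays alone -0.45 and -0.53.

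In the lists for T cell receptor immediate early genes (20 measured), IL-2 and STAT5 (18), the TGF-beta pathway (18), follicular T cells (14), and heat shock and stress (14), 0 members passed in limma, with medians of -0.07, 0.01, 0.06, 0.31 and -0.21. The first of these was 0.06 after quantile normalization. Of 16 killer lectin-like receptor genes Klrg1 alone passed, and of 10 IL-1 receptor family genes Il18r1 alone. By unadjusted p below 0.05 in limma 2527 of all genes differed, so values short of the threshold are not shown to be equal.

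**Figure D4:**
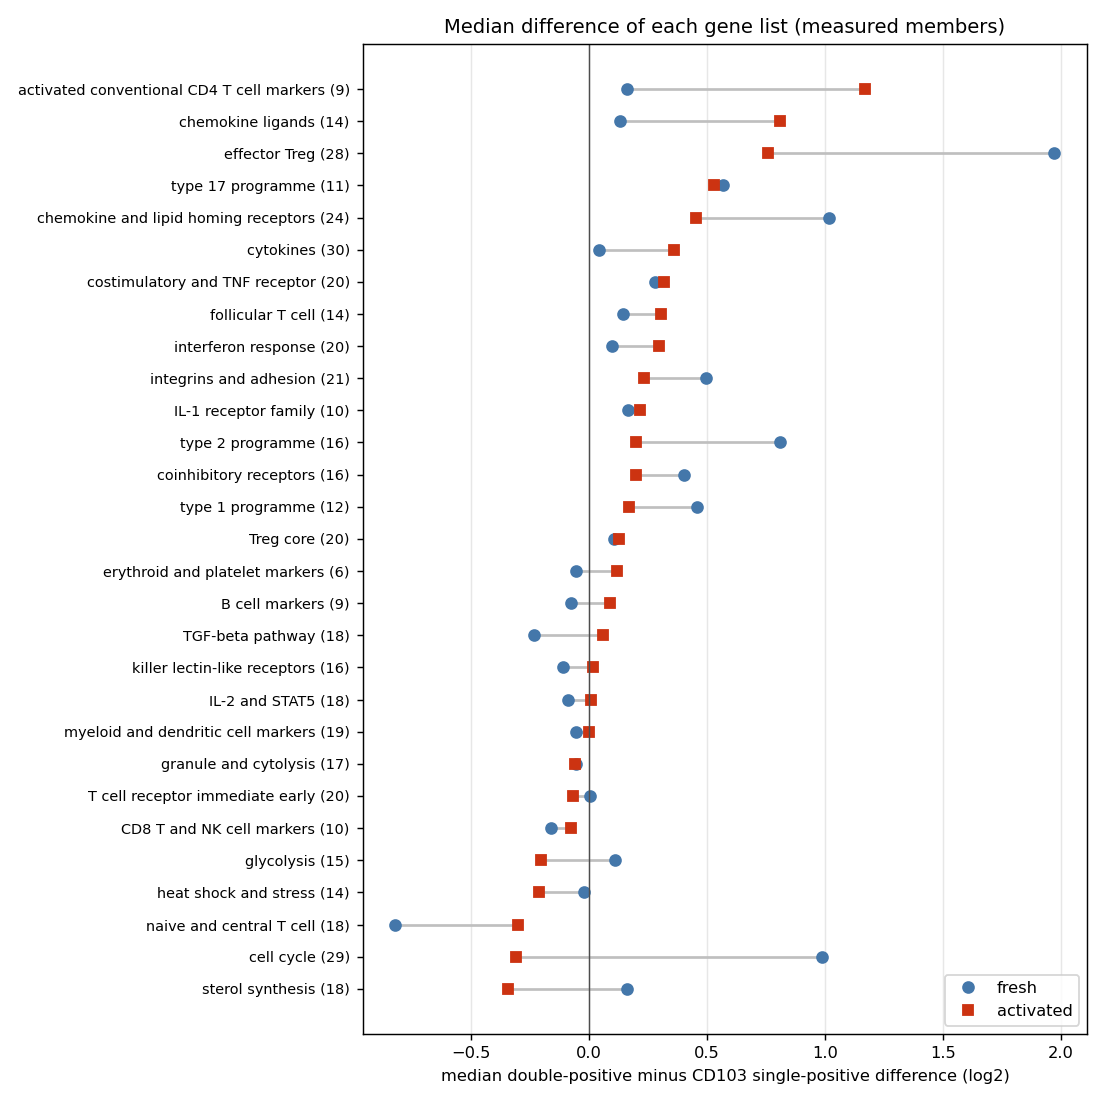
Median double-positive minus CD103 single-positive difference (log2, horizontal axis) of each gene list, with the number of measured members in brackets; red squares are activated and blue circles fresh cells. The cell cycle median lay at 0.99 in fresh and at -0.31 in activated cells, and the effector Treg median at 1.97 and 0.76.

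Markers of other cell types, among them types that shared the wells, were read for the same arrays. Of 9 markers of activated conventional CD4 T cells 8 had a positive difference and 2 passed, Csf2 and Cd40lg, with a median of 1.17, but the replicate 1 arrays alone gave 1.74 and the replicate 2 arrays alone 0.29. The mean level of these 9 markers was 6.65 to 6.78 in CD103 single-positive and 7.24 to 8.34 in double-positive cells, against 7.08 to 7.52 on the double-negative arrays and 7.73 on the ICOS single-positive array. Their part in the cytokine differences was not tested. Cd40lg, a ligand typical of conventional helper cells, was at 6.36 and 6.54 in CD103 single-positive and at 8.10 and 7.47 in double-positive cells. On the double-negative arrays it was at 8.10 and 7.99. Il2, which Treg do not usually make, was at 5.54 and 5.63 against 8.16 and 5.91, and Il3 at 4.80 and 4.79 against 8.99 and 6.31, so both stood highest on double-positive replicate 1. Of the 9 markers, 6 were higher and 1 was lower without overlap of the arrays, against 15.8% and 22.7% of all genes. For the markers named here, the double-positive replicate 2 array was also above CD103 single-positive replicate 2. The labels do not say that these 2 arrays form a pair. Cd40lg was at 7.47 against 6.54, Csf2 at 7.83 against 5.37, Il3 at 6.31 against 4.79 and Il2 at 5.91 against 5.63. Il2 and Il3 were chosen after their values were seen.

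Of the other marker lists 0 genes passed in limma. The mean levels over the CD103 single-positive and double-positive arrays were 5.90 to 6.18 for 9 B cell markers, 6.28 to 6.50 for 19 myeloid and dendritic cell markers, 5.71 to 5.80 for 10 CD8 T and NK cell markers and 5.59 to 5.85 for 6 erythroid and platelet markers, against an array median of 6.35. Single markers lay above these means: Cd74, which takes part in antigen presentation, was at 8.87 and 8.65 in CD103 single-positive and at 9.89 and 10.23 in double-positive cells (1.30 ± 0.65, adjusted p = 0.459), and Ebf1, a B cell factor, was at 9.43 and 9.18 against 8.26 and 8.45 (-0.95 ± 0.49, adjusted p = 0.488). Their part in the results was not tested. The mean level of the 20 Treg core genes was 10.95 to 11.23 in CD103 single-positive and 11.07 to 11.29 in double-positive cells. Intensities have no true 0, so no marker could be read as absent.

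Set beside the fresh cells, fewer genes passed the adjusted threshold after activation, and they were in part other genes. By unadjusted p below 0.05 in limma the order was the reverse, with 2527 genes after activation and 2299 in fresh cells. In fresh cells 499 genes were higher (2.5%) and 205 lower (1.03%) in double-positive cells, 704 in all (3.53%). Of the 106 genes higher after activation 55 were also higher in fresh cells, which is 51.9% of the activated list and 11% of the fresh one. Of the 60 lower genes 14 were also lower in fresh cells, 23.3% of the one list and 6.83% of the other. The activated and fresh comparisons share no array, only the estimate of the spread, and across all 19938 genes their differences correlated with r = 0.33 (Spearman's rho 0.16), as a description over genes, which are not independent replicates. Genes higher in fresh cells had a median difference of 1.18 there and 0.24 after activation, and genes lower in fresh cells of -1.03 and -0.26. These genes were picked by the fresh arrays, so smaller values on other arrays are partly built in, and the medians do not measure a loss.

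**Figure D5:**
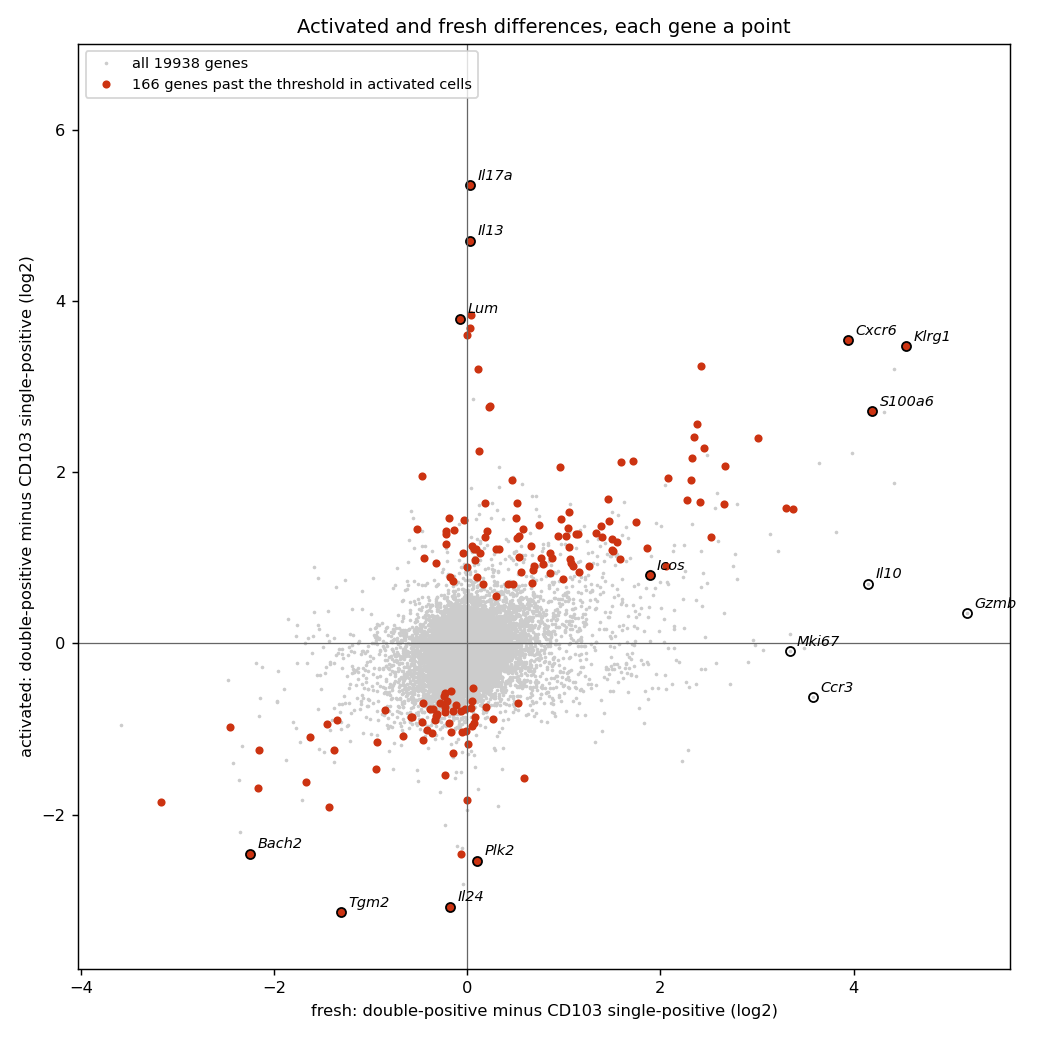
Double-positive minus CD103 single-positive difference (log2) of each of 19938 genes in fresh cells (horizontal axis) and in activated cells (vertical axis), with the 166 genes past the threshold in activated cells in red and named genes circled. Il17a, Il13 and Lum lie at 5.35, 4.70 and 3.79 on the vertical axis and close to 0 on the horizontal, Cxcr6 and Klrg1 are high on both, and Mki67, Il10 and Gzmb lie far to the right at -0.09, 0.70 and 0.35 on the vertical axis.

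The difference between the states was tested for each gene within the same fit, as the activated less the fresh difference. It was more positive in 54 genes (0.271%) and more negative in 170 (0.853%), 224 in all (1.12%). The more positive genes were led by genes with little or no fresh difference: Il17a (5.32), Il13 (4.67), Lum (3.86), Iltifb (3.79), Cxcl3 (3.66), Peg10 (3.61), Il17f (3.09) and Csf2 (2.54). On the fresh arrays of both subsets Il17a was at 5.79 to 5.92 and Il13 at 6.62 to 6.78, near the array median. The 106 genes higher after activation were picked by the activated difference, which enters the state difference, so more positive values are partly built in. Of these 106 genes 21 had a more positive and 3 a more negative state difference. Those 3 were Icos, S100a4 and Lgmn, a lysosomal protease, each also higher in fresh cells; Lgmn differed by 1.58 after activation and by 3.30 before it.

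The more negative genes were led by Ccr3 (-4.20), the eotaxin receptor, and by genes of cell division: Ccna2 (-3.55), Mki67 (-3.43), Bub1 (-3.20), Kif11 (-3.13) and Ccnb2 (-3.00). Olfr60, an olfactory receptor gene, and Sccpdh, an oxidoreductase-like protein, were at -3.24 and -3.13. Mki67 had been at 7.29 and 6.81 on the fresh CD103 single-positive arrays and at 10.28 and 10.51 on the fresh double-positive arrays, and stood at 11.50 to 11.61 on all 4 activated arrays. Of 29 cell cycle genes 15 had a more negative state difference and 15 had been higher in fresh double-positive cells; 28 of the fresh differences were positive, where 38.2% of all genes had a positive fresh difference. Ccr3 was at 5.33 and 5.36 against 8.64 and 9.20 in fresh cells and at 7.11 and 7.21 against 7.004 and 6.06 after activation. Of 28 effector Treg genes 19 were higher in fresh double-positive cells, and 5 had a more negative state difference. For Il10 and Gzmb the state difference was -3.46 and -4.83 without passing (adjusted p = 0.119 and 0.245 in limma), so a change of their contrast is not shown.

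Among genes lower after activation 9 had a more negative state difference, among them Plk2 (-2.64), Tnip3 (-2.39), Map3k20 (-2.16), Elovl4 (-1.82) and Prnp (-1.13). For genes picked as lower after activation, a more negative state difference is likewise partly built in. Plk2 was at 4.97 to 5.41 on the fresh arrays of both subsets, and Map3k20 at 5.21 to 5.82. St8sia1, a ganglioside synthase, was the 1 lower gene with a more positive state difference, falling by 0.97 after activation and by 2.46 in fresh cells. Nsl1, a kinetochore protein, was the 1 gene of opposite sign that passed in both states, at -0.70 after activation and 0.53 before it. St8sia1, Nsl1 and Lgmn were chosen after their values were seen.

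The replicates limit how far the counts carry. Across all genes the replicate 1 and replicate 2 differences correlated with r = 0.57 in activated and 0.85 in fresh cells, as a description. Of the 46 named genes that passed after activation 17 passed whichever 1 of the 15 arrays was left out: Il17a, Il13, Iltifb, Lum, Cxcl3, Peg10, Cxcr6, Klrg1, Frmd5, Il17f, Csf2, Cpe, Gbp3, Plk2, Tnip3, Map3k20 and Prnp. These 17 also passed with only the 4 arrays compared in the fit. With all 16 arrays 12 of the 17 were lost, with adjusted p-values of 0.063 to 0.204 in limma, among them Il17a (0.0756), Il13 (0.148), Iltifb (0.0873), Cxcr6 (0.0903) and Klrg1 (0.204), and Lum, Cxcl3, Plk2, Map3k20 and Prnp still passed. With only the activated arrays 11 were lost (0.0518 to 0.0974), among them Il13, Cxcl3, Il17f, Csf2 and Cxcr6, and Il17a, Iltifb, Lum, Klrg1, Frmd5 and Plk2 still passed. None of the 46 changed sign under any alternative, but this was largely fixed in advance. The largest genes were chosen for the same sign in both replicate numbers, and most alternatives change the spread and not the difference. The other calls rested on single arrays to some degree. Without CD103 single-positive replicate 1, 27 of the 46 were lost, with adjusted p-values of 0.058 to 0.306 in limma, among them Zbtb16, Lgals3, Tgm2, Bach2, Treml2, Gpr83, Txk and Cd40lg. Without CD103 single-positive replicate 2, 17 were lost (0.0519 to 0.166), among them Il17rb, Tgm2, Zbtb16 and Lgals3. Without double-positive replicate 1 the number was 14 (0.0503 to 0.106), among them Usp18, Tnfrsf1b and Il18r1. Without double-positive replicate 2 it was 23 (0.0505 to 0.347), among them S100a6, Tgm2, Bach2 and Elovl4. Icos, Itgae, Il24, Eno3, Tm6sf1, Actn1, Ccr9, Itga2, Serpinb9, Oas1a and Oas2 were lost in each of these 4 fits. The count of 166 fell without activated CD103 single-positive replicate 1 and without activated double-positive replicate 2. It rose when activated double-negative replicate 1 or replicate 2 was left out, 1 at a time. It became 97 without either fresh ICOS single-positive array and 108 without either fresh double-positive array.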

How the data were processed

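RNA from 16 samples was measured on expression arrays, with 270 ng of total RNA per array. The deposited log2 values, 1 per probe set for 35556 probe sets, were made by the authors with RMA and the affy package, per the submitters' processing notes; no source used here gives their versions or settings. Array medians ranged from 6.26 to 6.48, and no second normalization was applied. Arrays carry no counting depth, so the number of arrays limits the precision.

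Probe sets with 1 gene symbol in the platform annotation (21789; 1621 had several, 12146 none) were kept. The brightest stood for each of the 999 genes with several, which left 19938 genes with no filter on dim ones. limma 3.58.1 in R 4.3.3 fitted 8 group means to 15 arrays (7 residual degrees of freedom, prior 3.20), with Benjamini-Hochberg adjustment over all genes and a threshold of 0.05. The script was tested on simulated data. The comparison and the 29 gene lists (408 of 442 genes measured) were chosen with earlier results of these data known. The genes named are Itgae, Icos, Foxp3 and Il2ra, the 15 largest passing differences in each direction (8 for the difference between states) with the same sign in both replicate numbers, and up to 4 passing members of each list. Predicted genes and those for small RNA, histones or antigen receptors were not named. Alternatives were other arrays in the fit, replicate block, dim filter, quantile normalization, probe set rule, variance moderation and leaving out each array. Promoter stretches were found for 20 of the 30 largest genes.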

Additional observations from a re-analysis of the deposited data

Results flagged for a closer look

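All 28 results here are named genes whose double-positive minus CD103 single-positive difference was not the same in activated and fresh cells by limma's test of the 2 differences against each other; values are activated less fresh on the log2 scale, with n = 2 arrays per group. More positive after activation were the cytokine and chemokine genes Il17a (5.32), Il13 (4.67), Iltifb (3.79), Cxcl3 (3.66), Il17f (3.09) and Csf2 (2.54), with Lum (3.86), Peg10 (3.61), Cpe (2.53), Gbp3 (1.54), Txk (1.51) and Cd8a (1.19). Cd8a was lower in fresh double-positive cells and lay near the array median on all 4 activated arrays.

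More negative after activation were the dividing-cell genes Ccna2 (-3.55), Mki67 (-3.43), Bub1 (-3.20), Kif11 (-3.13), Ccnb2 (-3.00) and Ccne1 (-1.44). The chemokine receptor gene Ccr3 (-4.20), Olfr60 (-3.24), Sccpdh (-3.13), Blk (-1.75) and the sort gene Icos (-1.09) also had a smaller difference after activation than before it. Plk2 (-2.64), Tnip3 (-2.39), Map3k20 (-2.16), Elovl4 (-1.82) and Prnp (-1.13) were lower in double-positive cells after activation and did not pass in fresh cells.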

How the results depend on the processing

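The number of genes past the threshold depended on which arrays set the spread. The direction of the 46 named activated genes that passed did not, but the way they were chosen largely fixed that in advance. The activated count of 166 was 28 with all 16 arrays, 51 with only the 4 arrays compared, 13 with only the activated arrays and 105 with all probe sets tested. It was 181 without dim genes, 170 with probe sets averaged and 168 with trended, robust moderation. After quantile normalization it was 202, of which 75.2% were higher, against 63.9% of the 166, and the median over all genes moved from -0.01 to 0.02. The fresh count of 704 was 435 with all 16 arrays and 404 with only the 4 arrays compared. The count of 224 for the difference between states was 135 with all probe sets tested. Leaving out 1 array at a time gave 46 to 305 genes for activated cells, 327 to 818 for fresh cells and 104 to 291 for the difference. For fresh cells the low values came without fresh double-positive replicate 1 (404) or 2 (327), or fresh CD103 single-positive replicate 1 (429) or 2 (373). For the difference they came without fresh double-positive replicate 1 (145) or 2 (104), fresh CD103 single-positive replicate 1 (128) or 2 (117), activated CD103 single-positive replicate 1 (133) or 2 (138), or activated double-positive replicate 2 (116). Groups share replicate numbers, and the replicate 1 less replicate 2 differences correlated over 0.1 in 20 of 21 pairs of groups. The lowest r was -0.02 and the highest 0.75, between the fresh CD103-positive groups, with 0.34 between the activated CD103-positive groups. Most groups thus moved with the replicate number. The labels do not say whether the number marks a shared sort or assay, and the main fit took no account of it. With a replicate block the counts were 751, 1276 and 469, and of the 751 activated genes 310 were higher and 441 lower (41.3% higher). Without activated double-positive replicate 1 the share higher was 32.6%, and without replicate 2 it was 89.2%. Over the named genes, 1571 values under an alternative kept their side of the threshold, 325 no longer passed and 14 newly passed.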
